A study of Homo sapiens with 27 samples.

Results

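The shRNAs CPSF1 sh1 and CPSF1 sh2, which target the same message, were compared directly with each other in LNCaP, a hormone-sensitive human prostate cancer cell line. The comparison used every library whose title names LNCaP with CPSF1 sh1 or CPSF1 sh2, which gave 6 of the 27 samples of the series, 3 per shRNA. It asked which genes separated the 2 shRNAs, and whether the difference was a graded one, in which both moved a gene away from control and one moved it further, or was seen with 1 shRNA. The 3 LNCaP samples with a control shRNA (CTRL sh) stayed out of that test and show where control levels lay. The same shRNAs in LNCaP95 and 22Rv1, the other two cell lines of the series, were used where stated.

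All 3 LNCaP groups were stable pools made with lentivirus in the pGIPZ vector, selected with puromycin, expanded and grown for a fixed time after seeding, so controls carried a vector and had the same selection. The libraries of a group were described as biological replicates. No source used here says whether they came from separate infections, so p-values measure the spread between these samples. Poly(A)-ClickSeq (PAC-seq) sequences the point at which the poly(A) tail begins, and each read was assigned to a protein-coding gene by the place of its 3′ end. The 4 regions counted were the annotated 3′ UTR, the stretch up to 10 kb downstream of the gene, the introns and the coding exons (CDS). Levels are given in CPM, a gene's reads relative to all reads of the sample in that region's table, after TMM scaling between samples. A difference is a log2 value for sh2 minus sh1, with its standard error (SE) and the adjusted p of edgeR's quasi-likelihood test, and a call is an adjusted p under 0.05.

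CPSF1 encodes the largest protein of CPSF, the cleavage and polyadenylation complex that recognizes the AAUAAA signal and directs cleavage of the nascent transcript. Loss of cleavage at the usual site can leave transcripts that end further downstream, or at sites inside introns. Interferon-stimulated genes, a group to which several results below belong, are switched on by type I interferon or by sensing of double-stranded RNA, mainly through a promoter element called the interferon-stimulated response element (ISRE).

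The libraries held 6013071 to 11239076 reads over the 4 regions with sh1 and 3856706 to 8764462 with sh2, and sh2 replicate 2 was the shallowest. That library also stood apart in the downstream region of RPS2, a ribosomal protein gene, with 45167 reads or 15.8% of its 10 kb reads. CTRL replicate 2 had 41133 such reads (9.23%), and the other 25 samples of the series had 1 to 17. The 12 luminal prostate markers summed to 4978 to 5273 CPM with sh1, 4954 to 5437 with sh2 and 7015 to 7130 in CTRL, and 0 of them were called between the shRNAs. Markers of other cells were low. The 4 basal markers summed to 1.18 to 2.03 CPM in CTRL, 1.89 to 2.91 with sh1 and 2.48 to 6.68 with sh2, with KRT5 and TP63 at 0, and the 5 leukocyte markers to 0 to 0.547, 0 to 0.543 and 0 to 1.35 CPM, with PTPRC and LYZ at 0. In the same order, the 6 fibroblast markers summed to 12.3 to 19.3, 7.72 to 12.4 and 8.33 to 13.4 CPM (LUM at 0), the 3 endothelial markers to 0.941 to 4.10, 0 to 1.26 and 0 to 0.676 CPM (KDR at 0), and the 4 markers of kidney packaging cells to 9.29 to 12.2, 3.44 to 7.88 and 2.57 to 9.30 CPM (LHX1 at 0). Their part in the results was not tested.

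CPSF1 itself was lowered by both shRNAs. Its 3′ UTR level was 168, 132 and 126 CPM in CTRL, 63.0, 50.8 and 65.4 CPM with sh1, and 49.0, 91.5 and 58.1 CPM with sh2. Both shRNA groups lay below all controls and overlapped each other. Against CTRL, CPSF1 fell by 1.25 on the log2 scale with sh1 (SE 0.20, adjusted p = 4.6e-04) and by 1.14 with sh2 (SE 0.20, adjusted p = 0.0012). The difference between the shRNAs was 0.12 (SE 0.22, 95% interval -0.31 to 0.55, adjusted p = 0.94), and it was -0.15 without sh2 replicate 2. Thus the 2 shRNAs could not be ranked by the CPSF1 message that remained.

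With all 6 libraries, few genes were called between the shRNAs in any region. Of 11010 genes in the 3′ UTR table, 0 (0%) were called higher with sh2 and 3 (0.0272%) lower. Of 13449 in the 10 kb table, 10 (0.0744%) were called higher and 12 (0.0892%) lower. In introns 4 of 11950 (0.0335%) were higher and 10 (0.0837%) lower, and in the CDS 1 of 4929 (0.0203%) was higher and 2 (0.0406%) lower. At an unadjusted p under 0.05 the numbers were 689 genes in the 3′ UTR table, 964 in the 10 kb table, 758 in introns and 338 in the CDS. DESeq2 called 14 3′ UTR genes, of which 5 were higher with sh2. The 3′ UTR count depended on single libraries, with 61 higher and 42 lower without sh2 replicate 1 and 0 and 0 without sh2 replicate 3. The 42 calls fell on 40 genes, 15 calls higher and 27 lower with sh2. The split depended on the scaling. When the totals of the 4 regions together served as library sizes, and scaling factors came from the 3′ UTR reads, the 10 kb table had 53 calls higher and 4 lower, introns had 7 and 7, and the CDS had 1 and 0.

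The 3 genes called in the 3′ UTR table were interferon-stimulated genes, and all of them rose with sh1 against CTRL while their sh2 difference from CTRL did not pass the test. OASL encodes an oligoadenylate synthetase-like antiviral protein, and IFIT1 and IFIT2 encode tetratricopeptide-repeat proteins, of which IFIT1 binds viral RNA that lacks the host cap methylation. All 3 had a mean below 10 CPM and are named as called members of the interferon list.

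OASL was at 2.73, 1.42 and 2.12 CPM in CTRL, 14.8, 16.0 and 16.2 CPM with sh1, and 1.65, 0.514 and 0.676 CPM with sh2. Each sh1 sample was above every other sample, and sh2 minus sh1 was -3.87 (SE 0.42, adjusted p = 0.0022). Against CTRL, OASL rose with sh1 (log2 difference 2.91, adjusted p = 5.2e-05), while the sh2 difference of -0.95 did not pass the test (adjusted p = 0.26). IFIT2 was at 2.46, 0.609 and 1.41 CPM in CTRL, 6.62, 12.5 and 12.3 CPM with sh1, and 0.207, 0 and 0.676 CPM with sh2. The sh1 samples lay above all others while the sh2 and CTRL values overlapped, and sh2 minus sh1 was -4.79 (SE 0.61, adjusted p = 0.0084). IFIT1 was at 1.09, 1.42 and 1.65 CPM in CTRL, 8.47, 12.2 and 8.98 CPM with sh1, and 1.03, 2.06 and 0.450 CPM with sh2. Its sh2 and CTRL values overlapped and its sh1 values lay above both, with sh2 minus sh1 at -3.25 (SE 0.50, adjusted p = 0.045). IFIT2 was also called in the CDS table, where it stood at 28.1, 37.2 and 45.7 CPM with sh1, 2.56, 8.27 and 1.77 CPM with sh2 and 3.38, 4.39 and 1.68 CPM in CTRL (-3.31, SE 0.54, adjusted p = 0.0071).

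**Figure D1:**
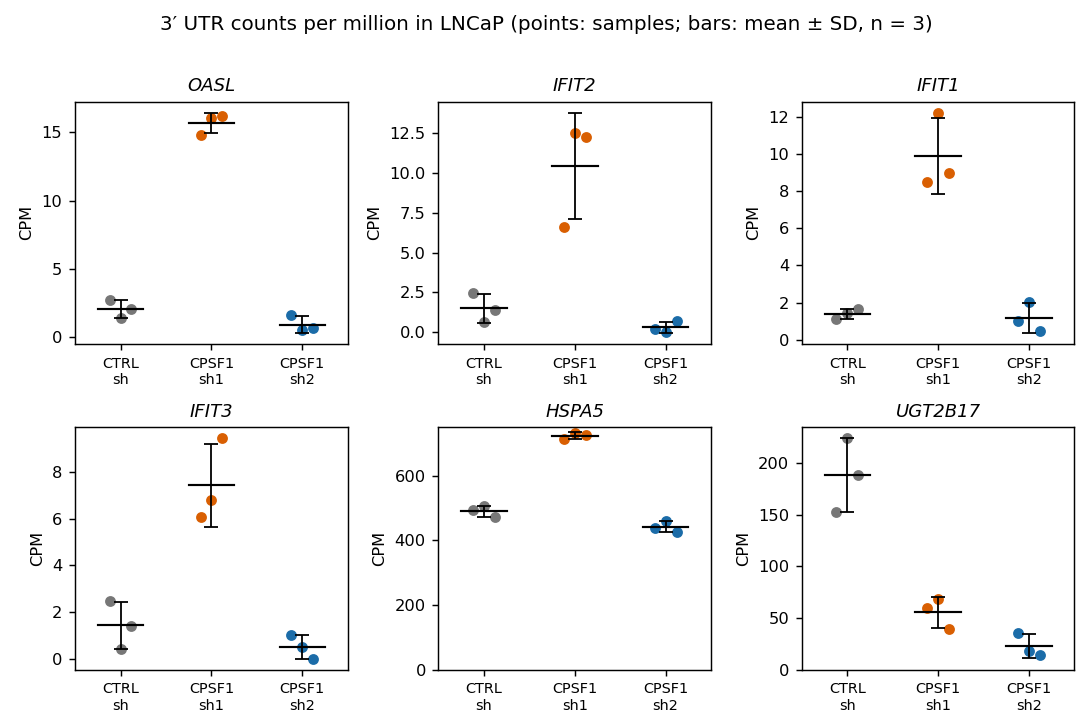
3′ UTR level in CPM for 6 genes in the 3 LNCaP groups. Points are samples and bars give the mean ± SD of 3. OASL, IFIT1, IFIT2, IFIT3 and HSPA5 are highest in all 3 sh1 samples, with sh2 near CTRL, whereas UGT2B17 falls from CTRL to sh1 to sh2.

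OASL and IFIT2 kept their 3′ UTR call under 12 of the 13 alternatives that tested them and lost it without sh2 replicate 3 (adjusted p = 0.057). IFIT1 kept it under 8 of 13, and its losses included the fits without any 1 of the sh1 libraries and without sh2 replicate 3. A further alternative, over 2 CPM in every sample, removed all 3 genes before the test and is not among the 13. The CDS call of IFIT2 was lost without sh1 replicate 3, without sh2 replicate 3 and under library sizes summed over the tables. Just outside the threshold, IFIT3, a partner of IFIT1, was at 6.09, 6.79 and 9.45 CPM with sh1 and 1.03, 0.514 and 0 CPM with sh2 (-3.75, SE 0.64, adjusted p = 0.107), and IFI44 differed by -2.13 (adjusted p = 0.59). The abundant member ISG15, a ubiquitin-like modifier, was at 296, 274 and 403 CPM with sh1 and 235, 341 and 362 CPM with sh2 (-0.06, adjusted p = 0.97). B2M, the light chain of MHC class I, differed by -0.57 (adjusted p = 0.71). Of 36 genes in the list, 26 passed the filter on low counts, and 23 were fitted lower with sh2 and 3 higher. Of all 11010 genes tested, 49.6% were fitted higher. An unadjusted p under 0.05 was found for 11 of the 26, beside 689 of all genes tested. The median of the 26 was -0.66, beside -0.0028 for all genes tested. The filter took the mean over both shRNAs, so members low with sh2 could enter through their sh1 values alone. The 3 called genes are among the 26, and the tally is not separate evidence for them. This list was chosen with earlier results of these data known.

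The promoters of these genes are shown because all of the 3′ UTR calls were interferon-stimulated. In RefSeq promoter windows (GRCh38.p14, 250 bases before to 50 after each gene start), the core GAAANNGAAA or its reverse TTTCNNTTTC was found on either strand in 1255 of 35116 windows (3.57%), and in 21 of 34 windows of the interferon list (61.8%). The list was made of genes known to respond to interferon, so its share follows from that choice and does not bear on the shRNAs. OASL and IFIT2 had no window in the table, so IFIT1 is the only called gene shown. IFIT3 and IFI44 were not called. The stretches below run in the direction of the gene, with the core in capitals, and positions are those of the whole stretch. The 2 cores of IFIT1, at chr10:89392497-89392526 and chr10:89392510-89392539 (plus strand), lie within stretches that overlap. The 4 IFIT3 cores, from windows at 2 gene starts, lie at chr10:89327831-89327860, chr10:89327865-89327894, chr10:89332425-89332454 and chr10:89332468-89332497 (plus strand), and that of IFI44 at chr1:78649761-78649790 (plus strand).
IFIT1 core 1: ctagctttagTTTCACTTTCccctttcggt
IFIT1 core 2: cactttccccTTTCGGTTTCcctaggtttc
IFIT3 core 1: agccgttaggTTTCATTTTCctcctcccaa
IFIT3 core 2: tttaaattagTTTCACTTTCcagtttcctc
IFIT3 core 3: acagattctgTTTCAGTTTCccctcaagag
IFIT3 core 4: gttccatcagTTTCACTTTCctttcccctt
IFI44 core: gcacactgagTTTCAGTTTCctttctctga
ISG15, which did not differ between the shRNAs by the test, also held the core, in stretches at chr1:1013374-1013403 and chr1:1013380-1013409 (plus strand). The first is shown.
ISG15 core: catgcctcggGAAAGGGAAAccgaaactga

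HSPA5, the endoplasmic reticulum chaperone BiP and a target of the unfolded protein response, was also highest with sh1. In the CDS table it was at 483, 371 and 427 CPM in CTRL, 685, 738 and 509 CPM with sh1, and 366, 322 and 288 CPM with sh2. The sh1 values lay above all CTRL values and the sh2 values below them. HSPA5 was lower with sh2 than with sh1 by a log2 difference of -0.96 (SE 0.16, adjusted p = 0.0097). In the 3′ UTR table sh1 was again above sh2, with 712, 731 and 727 CPM for sh1 and 438, 461 and 427 CPM for sh2. The difference of -0.71 (SE 0.13) did not pass the test there (adjusted p = 0.150). The CDS call was lost without sh1 replicate 1, sh1 replicate 2, sh2 replicate 2 or sh2 replicate 3 in turn, with adjusted p up to 0.26, and under library sizes summed over the tables.

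The stress list was not of 1 direction. Of its 26 genes, all tested, 15 were fitted higher with sh2 and 11 lower in the 3′ UTR table, with 0 called and a median of 0.18. At an unadjusted p under 0.05 there were 10 of the 26, beside 689 of all 11010 genes tested. HSP90B1, the second chaperone of that compartment, differed by -0.64 (SE 0.14, adjusted p = 0.37), and CRELD2 by -0.72 (SE 0.18, adjusted p = 0.59). In contrast, ATF4, the transcription factor of the integrated stress response, was fitted higher with sh2 (0.44, adjusted p = 0.71), as were ASNS, which makes asparagine (0.59, adjusted p = 0.64), PHGDH, the entry enzyme of serine synthesis (0.62, adjusted p = 0.59) and SHMT2 of mitochondrial serine metabolism (0.62, adjusted p = 0.64). PHGDH was at 780, 728 and 753 CPM in CTRL, 296, 319 and 331 CPM with sh1, and 427, 594 and 438 CPM with sh2, so that sh1 lay furthest from control. The ER stress element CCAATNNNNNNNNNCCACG was searched on both strands. The stress list was made of known stress genes, so its share does not bear on the shRNAs. The element was in 27 of 35116 windows (0.0769%) and in 4 of 35 windows of that list (11.4%), those of HSPA5, HSP90B1, XBP1 and CRELD2. It is shown for the called gene and for HSP90B1, from chr9:125241385-125241414 (minus strand) for HSPA5 and chr12:103930211-103930240 (plus strand) for HSP90B1, the first of its 2 elements, with the element in capitals.
HSPA5 element: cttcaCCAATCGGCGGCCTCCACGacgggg
HSP90B1 element: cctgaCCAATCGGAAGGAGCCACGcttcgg

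The remaining CDS call, GOLGA8G, belongs to a family of near-identical golgin copies, between which reads may be split. It was at 60.9, 26.4 and 99.2 CPM in CTRL, 1.17, 0 and 1.27 CPM with sh1 (3 reads in all), and 55.4, 11.6 and 47.8 CPM with sh2. The ratio of sh2 to sh1 was 47.1 (95% exact counting interval 15.8 to 231), and the groups did not overlap.

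In each of the other lists 0 members were called between the shRNAs in the 3′ UTR table. Glycolysis genes had a median difference of 0.16 over 17 genes, of which 13 were fitted higher with sh2. GPI was at 350, 372 and 362 CPM with sh1 and 353, 383 and 362 CPM with sh2 (0.02, 95% interval -0.24 to 0.27), against 605, 657 and 604 CPM in CTRL. ALDOA differed by -0.07 (95% interval -0.35 to 0.21), PGK1 by 0.18 (-0.08 to 0.45) and PFKM by -0.03 (-0.42 to 0.36), with intervals that include 0, and the sign for GPI and PFKM turned with single libraries or the scaling. The largest medians were those of the UGT2B and steroid enzyme list, at -0.51 with 12 of 14 fitted lower, and of the replication-dependent histones, at -0.43 with 10 of 12 fitted lower. At an unadjusted p under 0.05 there were 6 of the 14 and 5 of the 12, beside 689 of all 11010 genes tested. Of all genes tested in the 3′ UTR table, 49.6% were fitted higher with sh2. Medians of 0.15 (32 of 38 higher) for replication and mitosis and 0.13 (35 of 40 higher) for ribosomal proteins went the other way. The androgen response (median -0.13, 21 of 29 lower), sterol and fatty acid synthesis (-0.12, 20 of 27 lower), hypoxia (0.11 over 18 genes), small RNA (0.091 over 13), MYC and G1 (0.082 over 16), polyadenylation factor (0.072 over 20), mesenchymal (0.069 over 11), p53 (-0.048 over 24), neuronal (0.040 over 5) and oxidative phosphorylation (-0.0031 over 28) lists made up the rest.

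UGT2B17, which inactivates androgens by glucuronidation, had a graded order. It was at 153, 224 and 188 CPM in CTRL, 59.3, 68.4 and 39.4 CPM with sh1, and 36.0, 18.0 and 14.2 CPM with sh2. The groups did not overlap, and both shRNAs lowered it against CTRL (by -1.78 with sh1 and -3.02 with sh2, adjusted p = 2.0e-04 and 2.1e-06). The direct difference of -1.25 (SE 0.30, 95% interval -1.85 to -0.66) did not pass the test over all genes (adjusted p = 0.59). UGT2B genes are near-identical paralogs, and reads may be split between them.

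In the 10 kb region the calls included genes of both kinds. Of the 10 higher with sh2, RPS6, HDAC2, DDIT4, TRNAU1AP, GLUL and SCAP were fitted above control with both shRNAs and further with sh2, although DDIT4 and SCAP passed the test against CTRL with sh2 alone. RPS6, HDAC2 and GLUL fall outside the naming rule and were chosen after their values were seen. For each of these, levels refer to reads that end beyond the gene, and the gene's own 3′ UTR level is a separate value.

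RPS6 encodes a ribosomal protein of the small subunit that is phosphorylated downstream of mTOR. Its 10 kb region (chr9:19365414-19375413, hg19, minus strand) had 66.3, 76.8 and 84.5 CPM in CTRL, 364, 409 and 342 CPM with sh1, and 842, 591 and 665 CPM with sh2. The 3 groups did not overlap and stood in the order CTRL, sh1, sh2, with sh2 minus sh1 at 0.93 (SE 0.20, adjusted p = 0.0085). Its 3′ UTR level did not differ between the shRNAs by the test (0.05, SE 0.13, adjusted p = 0.96). HDAC2, a histone deacetylase, had 3.01, 5.12 and 0 CPM downstream (chr6:114243893-114253892, hg19, minus strand) in CTRL, 86.8, 132 and 137 CPM with sh1, and 244, 193 and 270 CPM with sh2. All shRNA samples were far above control, and sh2 minus sh1 was 1.00 (SE 0.25, adjusted p = 0.042). The counts behind control were 3 reads, which gave ratios to CTRL of 43.6 (95% exact counting interval 14.7 to 213) for sh1 and 87.6 (29.7 to 427) for sh2.

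DDIT4 encodes REDD1, a stress-induced inhibitor of mTORC1. Downstream of it (chr10:74036094-74046093, hg19, plus strand) there were 6.03, 0 and 0 CPM in CTRL, 7.23, 14.3 and 1.47 CPM with sh1, and 51.0, 49.8 and 46.9 CPM with sh2. The sh2 samples were tightly grouped and above every other sample, and sh2 minus sh1 was 2.85 (SE 0.59, adjusted p = 0.0042). Only the sh2 difference from CTRL passed the test (adjusted p = 3.6e-06 for sh2 and 0.38 for sh1). The DDIT4 call was lost without sh1 replicate 3, which had the lowest value of its group.

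TRNAU1AP, which takes part in selenocysteine incorporation, had 21.1, 20.5 and 11.3 CPM in CTRL, 43.4, 68.6 and 54.6 CPM with sh1 and 117, 126 and 154 CPM with sh2 (1.27, SE 0.31, adjusted p = 0.037). GLUL, glutamine synthetase, had 67.5, 111 and 106 CPM with sh1 and 167, 282 and 194 CPM with sh2 (1.16, SE 0.26, adjusted p = 0.013). SCAP, the escort protein of the SREBP transcription factors, had 21.7, 2.86 and 14.7 CPM with sh1 and 29.1, 79.7 and 58.6 CPM with sh2 (1.99, SE 0.50, adjusted p = 0.042). In all 3 the sh2 samples lay above the sh1 samples, by a wide gap for TRNAU1AP and a narrow one for SCAP.

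GRAMD1A, a cholesterol transporter between membranes, was raised with sh2 alone. Its 10 kb region had 21.1, 23.0 and 22.5 CPM in CTRL, 28.9, 25.7 and 19.2 CPM with sh1, and 72.8, 89.7 and 111 CPM with sh2 (1.92, SE 0.39, adjusted p = 0.0041). Against CTRL the sh1 difference was 0.10 (adjusted p = 0.95) and the sh2 difference 2.00 (adjusted p = 1.4e-04). The region overlaps another annotated gene on the same strand, so the source of these reads cannot be told apart there. RPN2 of the oligosaccharyltransferase complex had 9.64, 14.3 and 1.47 CPM with sh1 and 38.2, 49.8 and 36.9 CPM with sh2 (2.44, SE 0.61, adjusted p = 0.042), around a control of 18.1, 7.68 and 16.9 CPM from which neither shRNA differed by the test. CPXM2 had 0 reads with sh1 and 25 with sh2, 15 of them in replicate 2, and was at least 3.33-fold higher with sh2 against a floor of 3 reads per library. The tenth call, RPS2, rested on the single library named above, with sh1 at 31.3, 8.58 and 13.3 CPM and the other sh2 samples at 9.10 and 3.35 CPM, and without that library the difference was -1.49 and not called.

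**Figure D2:**
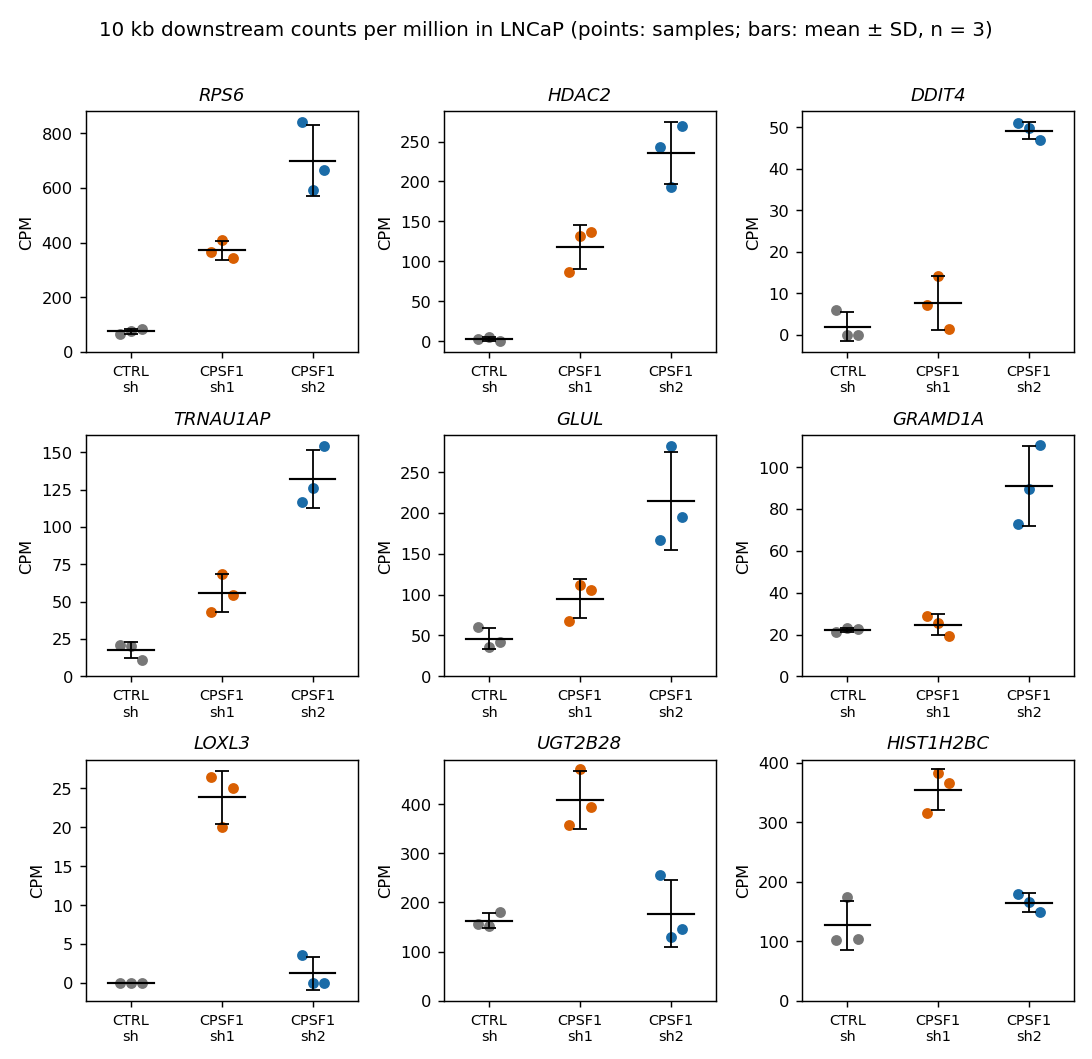
Level in the 10 kb downstream region, in CPM, for 9 genes in the 3 LNCaP groups, with points for samples and bars for the mean ± SD of 3. RPS6, HDAC2, TRNAU1AP and GLUL rise from CTRL to sh1 to sh2, GRAMD1A is high in the 3 sh2 samples alone, and LOXL3, UGT2B28 and HIST1H2BC are highest in the 3 sh1 samples.

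The 12 genes lower with sh2 in the 10 kb table were of 2 shapes. UGT2B28, HIST1H2BC, LOXL3, B3GALT5, IGDCC3 and OASL had their highest values with sh1, and for the first 4 of these the sh1 difference from CTRL passed the test. UGT2B28, a glucuronosyltransferase of the steroid family, had 157, 151 and 180 CPM in CTRL, 357, 472 and 394 CPM with sh1, and 255, 130 and 146 CPM with sh2 (-1.18, SE 0.22, adjusted p = 0.0011). HIST1H2BC, a replication-dependent histone H2B gene whose transcripts normally end in a stem-loop without a poly(A) tail, had 103, 174 and 104 CPM in CTRL, 316, 383 and 366 CPM with sh1, and 180, 166 and 149 CPM with sh2 (-1.10, SE 0.23, adjusted p = 0.0042). In both genes sh1 lay above all other samples, and sh2 did not differ from CTRL by the test (0.12 for UGT2B28, adjusted p = 0.82, and 0.35 for HIST1H2BC, adjusted p = 0.41). HIST1H2BC was also fitted lower with sh2 in its 3′ UTR (-1.22, SE 0.33), without passing the test (adjusted p = 0.64).

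LOXL3, a lysyl oxidase of the matrix, had 0 reads downstream in CTRL, 26.5, 20.02 and 25.1 CPM with sh1, and 3.64, 0 and 0 CPM with sh2, an sh1 to sh2 ratio of 17.6 (95% exact counting interval 4.51 to 151). B3GALT5, a galactosyltransferase, had 26.5, 37.2 and 11.8 CPM with sh1 and 3.64, 0 and 0 CPM with sh2, a ratio of 16.1 (4.10 to 138). IGDCC3 had 19.3, 34.3 and 17.7 CPM with sh1 and 0 reads with sh2, at least 3.49-fold higher with sh1, and OASL likewise was at least 2.65-fold higher with sh1 (0 reads with sh2). These ratios rest on 27 to 35 reads in the sh1 group, and the LOXL3, B3GALT5 and OASL regions also overlap other annotated genes on the same strand, as do those of RPS6, HIST2H3D, POMT2, ZNF460, RPS2 and SEPT1.

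HIST2H3D, TAF13, POMT2, PURA and ZNF460 were fitted lower than CTRL with sh2, a difference that passed the test for 4 of them and not for TAF13 (-0.63, adjusted p = 0.056). HIST2H3D, a histone H3 gene, had 87.4, 123 and 113 CPM in CTRL, 98.8, 109 and 140 CPM with sh1, and 56.4, 29.9 and 36.9 CPM with sh2 (-1.46, SE 0.33, adjusted p = 0.013). TAF13 of the TFIID complex (-1.06), POMT2, an O-mannosyltransferase (-1.05), PURA, a nucleic acid binding protein (-0.95), and ZNF460, a zinc finger gene (-0.91), had adjusted p between 0.0085 and 0.042 and their lowest value in sh2 replicate 2, the shallow library with the RPS2 reads, and the calls of all 4 were lost without it. HIST2H3D likewise had its lowest value there and lost its call without it, and all 5 lost their calls under library sizes summed over the tables. ZNF460 overlapped between the groups. The twelfth, SEPT1, came from 1 library, with 69.9 CPM in sh1 replicate 1 and 2.86 and 0 CPM in the other two sh1 samples. TAF13, POMT2, PURA, ZNF460, SEPT1 and OASL fall outside the naming rule and were chosen after their values were seen.

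DESeq2 gave an adjusted p for 9 of the 22 genes called in the 10 kb table and called 7 of them. It gave none for the other 13. Calls depended on single libraries. Without sh2 replicate 3, 3 of the 22 remained, without sh1 replicate 2, 4, without sh1 replicate 1, 6, without sh2 replicate 2, 8, and without sh1 replicate 3, 9. RPS6 and HDAC2 were still called without sh2 replicate 2 alone, TRNAU1AP without sh2 replicate 1 alone, and SCAP without sh2 replicate 1 alone. GRAMD1A lost its call without sh1 replicate 3 or sh2 replicate 3, and UGT2B28 and HIST1H2BC lost theirs without sh1 replicate 2 or sh2 replicate 3, and HIST1H2BC also under the summed library sizes. The least stable named calls were LOXL3, kept under 4 of 13 alternatives and lost under the summed sizes and the 9-sample fit among others, B3GALT5, kept under 5 of 13 and lost under the same 2, and RPN2, kept under 5 of 13 and lost on leaving out any 1 of the 6 libraries.

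Large differences were found in introns. AASS encodes the enzyme that starts lysine breakdown in mitochondria. Its introns (chr7:121715701-121784334, hg19, minus strand) had 13.1, 8.32 and 15.1 CPM in CTRL, 360, 537 and 415 CPM with sh1, and 8.76, 6.91 and 3.17 CPM with sh2. The sh1 samples stood apart from all others, 72.0-fold above sh2 (sh2 minus sh1 -6.17, SE 0.25, adjusted p = 3.0e-17). The AASS 3′ UTR was at 0.815 to 2.52 CPM with sh1 and 2.44 to 5.19 CPM in CTRL, so the reads inside the introns were not matched by reads at the annotated end. PLEK, a protein kinase C substrate of blood cells, had intron levels of 1.94, 0.396 and 0.890 CPM in CTRL, 39.8, 43.9 and 49.9 CPM with sh1, and 0.548, 0 and 0.904 CPM with sh2. Its ratio of sh1 to sh2 was 76.9 (95% exact counting interval 26.0 to 375), and it had 0 CDS reads in the 9 libraries. AASS and PLEK kept their calls under every alternative run for them, 14 and 13.

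CFTR, an epithelial chloride channel, had intron levels of 6.32, 7.13 and 9.80 CPM in CTRL, 32.8, 40.0 and 45.9 CPM with sh1, and 10.4, 10.9 and 7.23 CPM with sh2 (-2.10, SE 0.29, adjusted p = 2.2e-04), and kept its call under 14 of 14 alternatives. ECM2, a matrix protein gene, had 3.401, 4.36 and 2.67 CPM in CTRL, 17.7, 31.4 and 18.2 CPM with sh1, and 2.74, 0.988 and 4.52 CPM with sh2 (-2.81, SE 0.45, adjusted p = 0.0020), a call lost without sh1 replicate 2 alone (adjusted p = 0.067). Both genes had sh1 above all other samples and sh2 within or close to the control range. The other 6 intron calls lower with sh2, METTL9, ESCO1, PTPRT, MASP1, SLC26A3 and ZFPM2, fall outside the naming rule, were chosen after their values were seen, and ranged from -0.99 for ESCO1 to -3.15 for MASP1. Each of the 6 rose against CTRL with sh1 (adjusted p 0.0041 or less) and did not pass the test with sh2 (adjusted p 0.29 or more).

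The 4 intron calls higher with sh2 were graded. For DNAJC9 and HS6ST1 the region counted as intron also covers sequence past the annotated 3′ UTR (hg19, minus strand). It reaches down to chr10:74943120 for DNAJC9, whose 3′ UTR reaches to 75002282. For HS6ST1 it reaches to chr2:128994290, and the 3′ UTR to 129022754. Reads beyond the 3′ UTR cannot be told apart from reads inside introns in these regions. ARHGEF2, which encodes the RhoA exchange factor GEF-H1, had intron levels of 26.7, 20.2 and 12.9 CPM in CTRL, 58.0, 52.5 and 43.7 CPM with sh1, and 97.5, 117 and 101 CPM with sh2 (1.04, SE 0.18, adjusted p = 0.0039). DNAJC9, a heat shock co-chaperone of histones, had 29.2, 22.2 and 31.2 CPM in CTRL, 112, 108 and 97.3 CPM with sh1, and 186, 162 and 200.3 CPM with sh2 (0.80, SE 0.16, adjusted p = 0.020). HS6ST1, a heparan sulfate sulfotransferase, differed by 0.86 (SE 0.18, adjusted p = 0.044) and ADCY10, the soluble adenylyl cyclase, by 0.78 (SE 0.16, adjusted p = 0.025). In all 4 genes the groups did not overlap and stood in the order CTRL, sh1, sh2. Without sh1 replicate 2, 0 of the 4 were called, and of all 14 intron calls 3 remained, AASS, PLEK and CFTR. Without sh2 replicate 3, 7 of the 14 remained. The intron regions of CFTR, ECM2, METTL9, ZFPM2, DNAJC9 and ADCY10 overlap other annotated genes or pseudogenes on the same strand. The source of reads in the overlaps cannot be told apart.

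**Figure D3:**
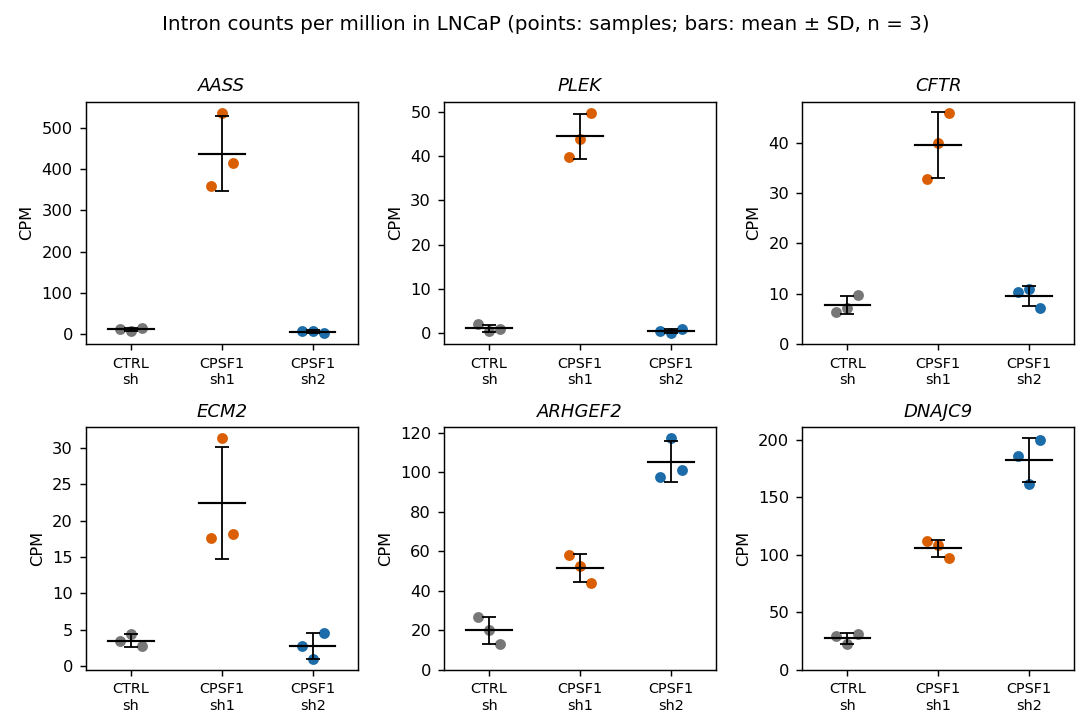
Intron level in CPM for 6 genes in the 3 LNCaP groups, with points for samples and bars for the mean ± SD of 3. AASS, PLEK, CFTR and ECM2 are high in the 3 sh1 samples only, and ARHGEF2 and DNAJC9 rise from CTRL to sh1 to sh2. The DNAJC9 region also covers sequence past its annotated 3′ UTR.

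Several of the regions that were high with sh1 were also high in 22Rv1, whatever its shRNA. Those named here are examples, and the 22Rv1 levels of the other regions high with sh1 are not given, so no share can be stated. In 22Rv1 the mean AASS intron level was 576 CPM in CTRL, 415 with sh1 and 424 with sh2. PLEK introns were at 50.7, 39.0 and 32.5 CPM there, ECM2 introns at 27.8, 21.0 and 26.2 CPM, and ZFPM2 introns at 36.6, 31.1 and 29.5 CPM. Downstream of LOXL3 the 22Rv1 means were 67.6, 41.0 and 33.6 CPM, and downstream of IGDCC3 40.3, 27.2 and 23.1 CPM. LNCaP with sh1 therefore had 22Rv1-like values at these regions, while LNCaP95, a derivative of LNCaP, had AASS introns at 30.4, 20.1 and 14.5 CPM. The 64 genes with over 30 CPM in the 3′ UTR in 22Rv1 CTRL and under 1 CPM in LNCaP CTRL were also summed. Their sums were 23.3 to 31.7 CPM with sh1, 23.1 to 26.3 with sh2 and 10.2 to 57.7 in LNCaP CTRL. In 22Rv1 CTRL they were 4830 to 5032 CPM. The sh1 range thus overlapped those of sh2 and LNCaP CTRL. Why sh1 was near 22Rv1 at the AASS, PLEK, ECM2 and IGDCC3 regions was not tested.

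To ask whether the differences were graded or of 1 shRNA, each of the 42 calls was placed by its fitted change from CTRL, with 0.5 on the log2 scale as the least change that counted. Of these, 10 were graded with sh2 further from control, 3 graded with sh1 further, 14 seen with sh1 alone, 6 with sh2 alone, and 9 had the shRNAs on opposite sides of control. The 10 graded toward sh2 were the 6 downstream and 4 intron regions named above. The counts of sh1-only and opposite calls moved with the limit, to 6 and 16 at 0.25 and to 16 and 6 at 1, whereas the 10 graded toward sh2 were 10 at each limit. Among all genes tested 27.6% of the 10 kb regions and 12.1% of introns fell into the graded class with sh2 further, against 6 of 22 and 4 of 14 calls. In the 10 kb table the sh1-only class held 14.1% of all regions and 4 of 22 calls, the sh2-only class 17.5% and 6, the class graded toward sh1 19.7% and 1, and the opposite class 3.45% and 5. In introns these 4 classes held 12.03%, 14.0%, 9.92% and 0.828% of all genes and 7, 0, 1 and 2 of 14 calls. The calls were chosen for a difference between the same sh1 and sh2 samples that then set their class. Such a difference leaves little room for a change under 0.5 with both shRNAs, and 0 of the 42 calls had one. The shares of all genes are therefore no expectation for the calls, and the tests against CTRL have the same limit. By the tests against CTRL, which share the 3 controls, 8 calls passed with both shRNAs, all higher with sh2, and 22 passed with sh1 alone, of which 20 were lower with sh2. A further 8 passed with sh2 alone and 4 with neither. In 0 of the 9 opposite calls did both shRNAs pass the test against CTRL, so the lower side of those 9 was not separated from control. RPS2 is among the calls counted with sh1 alone, and both it and SEPT1 rest on single libraries.

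**Figure D4:**
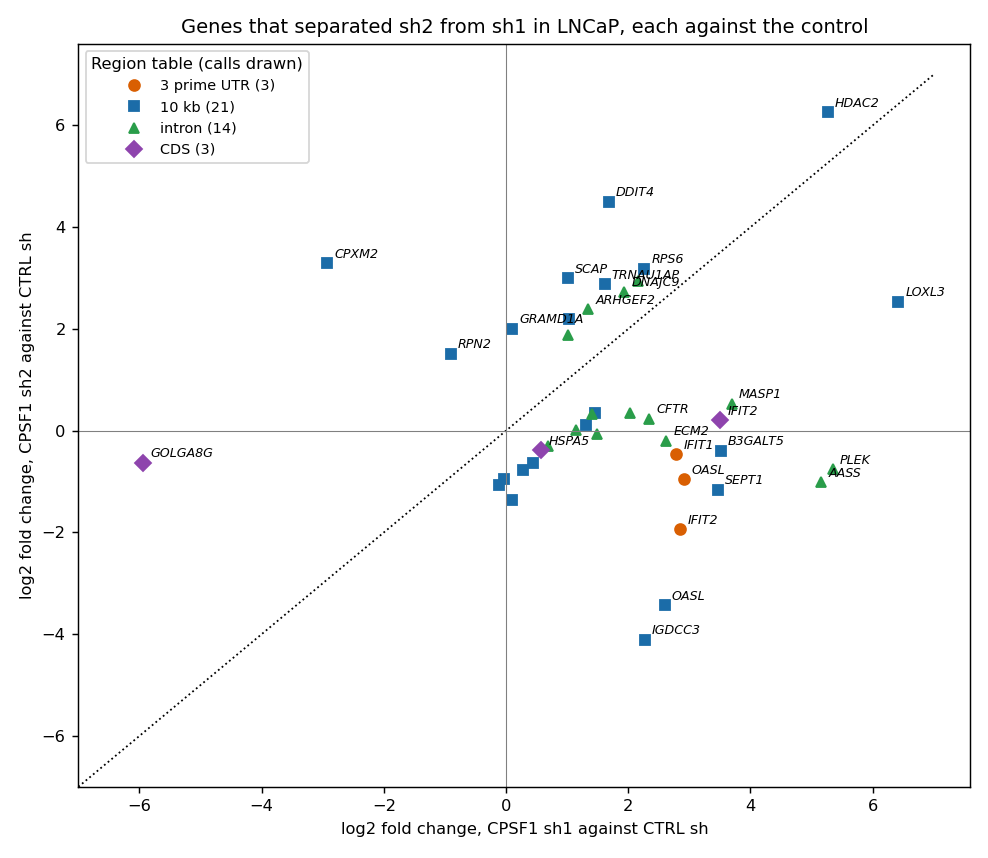
Change from CTRL on the log2 scale with sh1 (horizontal axis) and with sh2 (vertical axis) for the called regions, 41 of 42 with RPS2 left out. Points near the horizontal axis changed with sh1 alone, and points above the diagonal in the upper right quadrant rose with both shRNAs and further with sh2. Both axes share the 3 control samples.

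The 10 kb reads were also compared as a whole, in a design of 3 against 3 whose smallest exact p is 0.1. Reads in the 10 kb region made up 4.88% ± 0.09 (SD, n = 3) of reads over the 4 regions in CTRL, 5.80% ± 0.33 with sh1 and 6.75% ± 0.57 with sh2 (exact permutation test over samples, two-sided, p = 0.1). The sh1 samples had 5.89%, 5.44% and 6.08% and the sh2 samples 6.33%, 7.40% and 6.53%, which did not overlap. Without the RPS2 region the share in sh2 replicate 2 was 6.30% in place of 7.40%. The 3′ UTR share was 56.5% with sh1 and 53.9% with sh2 (exact p = 0.3), the intron share 24.3% and 24.7% (exact p = 0.8), and the CDS share 13.4% and 14.7% (exact p = 0.2). Within genes, downstream reads relative to 3′ UTR reads were called by edgeR for 0 of 9419 genes higher with sh2 (0%) and 0 lower (0%). The median difference of this ratio was 0.071, 586 genes had an unadjusted p under 0.05, and no other tool was run.

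A set of downstream responders chosen without LNCaP samples gave a further view. Genes were taken whose 10 kb region changed in LNCaP95 or in 22Rv1 with the 2 shRNAs as 1 knockdown group against that line's own control, and their levels were then read in LNCaP. For the 2520 genes higher in LNCaP95, the median change from CTRL in LNCaP was 1.08 with sh1 and 1.28 with sh2, and sh2 was above sh1 in 1690 of them (67.1%), beside 50.3% of all genes tested. For the 1419 genes lower in LNCaP95, the medians were -0.56 and -0.79, and sh2 was above sh1 in 32.1%. The 1010 genes higher in 22Rv1 had medians of 1.31 and 1.54, with sh2 above sh1 in 70.6%, and the 367 lower in 22Rv1 had medians of -0.39 and -0.65, with sh2 above in 23.4%. All 4 sets were thus further from control with sh2, by median sh2 minus sh1 differences of 0.23, -0.23, 0.24 and -0.25. Genes are not replicates, and both changes share the same controls.

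The per-sample medians of these sets were compared as values. After each sample's median over all 10 kb regions was taken off, a step chosen after seeing the data, the set higher in LNCaP95 stood at 1.01, 1.01 and 0.918 in the sh1 samples and 1.24, 1.26 and 1.22 in the sh2 samples. The set lower in LNCaP95 stood at -0.823, -0.798 and -0.706 with sh1 and -1.08, -0.875 and -0.954 with sh2. The sets from 22Rv1 stood at 1.28, 1.22 and 1.21 against 1.47, 1.55 and 1.51 for higher genes, and at -0.751, -0.579 and -0.629 against -0.882, -0.815 and -0.863 for lower genes. In none of the 4 sets did the shRNA groups overlap. Without the centring, both sets of higher genes overlapped, since sh2 replicate 2 had a median over all regions of 0.020 where the other 5 samples had 0.27 to 0.37, and both sets of lower genes did not. In the 3′ UTR table the LNCaP95 sets, of 1598 higher and 1630 lower genes, had median sh2 minus sh1 differences of 0.048 and -0.036. The smaller 22Rv1 sets, of 69 higher and 72 lower genes, had 0.15 and -0.061, with sh2 above sh1 in 69.6% and 43.1%, and the groups overlapped in all 4 sets.

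**Figure D5:**
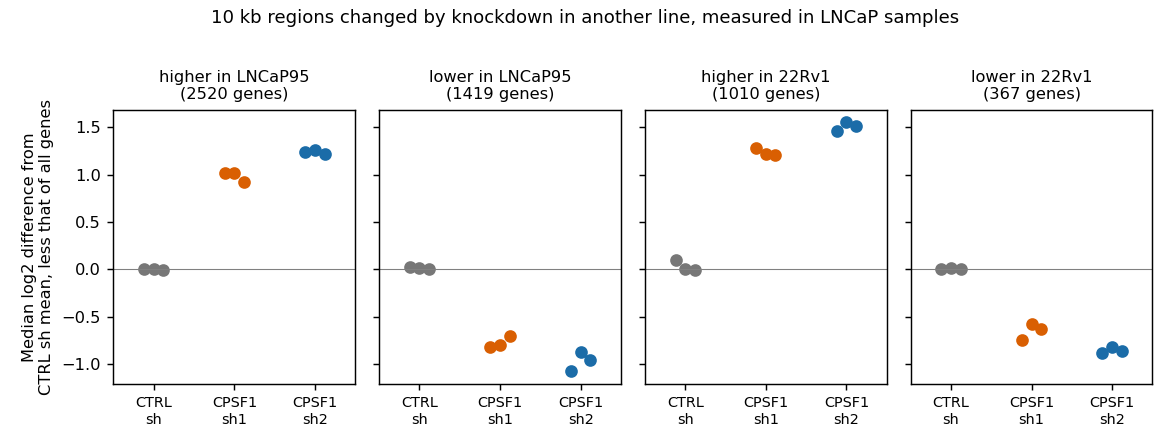
Median change from CTRL on the log2 scale, per sample and after centring, over downstream regions that changed in LNCaP95 or 22Rv1 on knockdown, shown for the LNCaP samples in 4 panels. Each point is a sample, and in every panel the 3 sh2 samples lie further from 0 than the 3 sh1 samples.

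The same contrast in the other lines gave 0 calls in LNCaP95 in each of the 4 tables, and in 22Rv1 92 genes higher and 120 lower in the 3′ UTR table and 114 and 56 in the 10 kb table. Whether the LNCaP difference itself was particular to LNCaP was tested as a line-by-shRNA term. Against LNCaP95, 0 of 11368 3′ UTR genes (0%), 5 of 14472 10 kb regions (0.0345%), 2 of 12391 introns (0.0161%) and 0 of 4972 CDS regions (0%) passed. Against 22Rv1, 18 of 11640 3′ UTR genes (0.155%), 18 of 14482 10 kb regions (0.124%), 20 of 12372 introns (0.162%) and 6 of 5046 CDS regions (0.119%) passed. AASS introns passed in both, with line differences of 5.69 against LNCaP95 (adjusted p = 3.9e-11) and 6.19 against 22Rv1 (adjusted p = 3.0e-17). DDIT4 downstream reads passed against LNCaP95, where its means were 124 CPM with sh1 and 117 with sh2 (line difference -3.00, adjusted p = 0.012). The interferon genes could not be compared with weight, since OASL, IFIT1 and IFIT2 were between 0 and 2.29 CPM on average in the 3′ UTR in the other lines with either shRNA. Of the 22 LNCaP calls in the 10 kb table, 13 of 18 tested had the same sign in LNCaP95 and 11 of 20 in 22Rv1, beside 53.6% and 53.3% of all regions.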

How the data were processed

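PAC-seq was run on 27 libraries, of which 6 were compared here, with 3 LNCaP controls and the other lines used as stated. The deposited values are raw read counts per gene from the authors, in 4 tables (3′ UTR extended by 300 bases, 10 kb downstream, intron, CDS), from single-end reads stripped of poly(A) with DPAC, aligned to hg19 and assigned by their 3′-most base and strand with featureCounts. The submitters' processing notes name HISAT2 2.1.0 and Subread 2.0.3. Replicates were kept separate, and 0 columns were left unmapped. Groups came from the sample titles.

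Counts were tested with edgeR 4.0.16 (R 4.3.3), TMM within each table, genes above a mean of 2 CPM over the 6 samples, and the quasi-likelihood F-test with Benjamini-Hochberg adjustment at 0.05. Changes from control came from a fit of all 9 LNCaP samples. DESeq2 1.42.0, other scalings, filters, a replicate block and leaving out each library were alternatives. Shares used exact permutation over the 20 splits, run in R. Exact counting intervals came from scipy 1.17.1. Scripts were tested on simulated data. Depth sets the precision of low counts, intervals cover counting error only, and PCR reads carried no molecular identifiers.

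Genes were named by size of change among calls without overlap and with a mean of at least 10 CPM (up to 12 per direction in the 3′ UTR table, 6 in the 10 kb table, 4 in introns and 3 in the CDS), with the target CPSF1, the enzymes ALDOA, PGK1, GPI, PFKM and ALDH3A2, and UGT2B17, and with up to 4 called members, or the one of lowest p, from each of 17 lists. The comparison, lists and tests were chosen with earlier results of these data known. Hairpin sequences were not used here.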

Additional observations from a re-analysis of the deposited data

Results flagged for a closer look

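The sh2 minus sh1 difference itself differed between lines for the regions below by edgeR's line-by-shRNA term, given as the other line minus LNCaP on the log2 scale. Against LNCaP95 these were the 10 kb regions of DDIT4 (-3.00) and RPS2 (-12.3) and the AASS introns (5.69). Against 22Rv1 they were the 10 kb regions of IGDCC3 (6.72), B3GALT5 (4.66), HIST1H2BC (1.80), TAF13 (1.31), ZNF460 (1.22) and RPS2 (-11.8). They were also the introns of AASS (6.19), PLEK (5.85), MASP1 (3.46), ECM2 (3.08), CFTR (2.26), SLC26A3 (1.76), METTL9 (1.64) and ESCO1 (0.98). Between 22Rv1 and LNCaP, 18 genes differed in this way in their 3′ UTR. The values for RPS2 rest on the reads of sh2 replicate 2, and IGDCC3 had 0 reads with sh2 in LNCaP, so the size of its value depends on the prior count of the fit.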

How the results depend on the processing

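Counts are given as higher and lower with sh2. With DESeq2 they were 5 and 9 in the 3′ UTR table, and 5 were higher in the 10 kb table. With no filter on low counts they were 17 and 16 in the 3′ UTR table, 14 and 17 in introns, 9 and 7 in the CDS, and 7 lower in the 10 kb table. With over 2 CPM in every sample, 0 were lower in the 3′ UTR table, 6 and 6 were called in the 10 kb table and 0 and 1 in the CDS. With summed library sizes they were 53 and 4 in the 10 kb table, 7 higher in introns and 0 lower in the CDS, and with all 9 LNCaP samples in 1 fit 6 were higher in the 10 kb table. The cause was not tested. Leaving out each library gave ranges of 0 to 61 higher and 0 to 42 lower in the 3′ UTR table (61 and 42 without sh2 replicate 1, 0 and 0 without sh2 replicate 3), 3 to 9 and 0 to 26 in the 10 kb table, 0 to 13 and 3 to 25 in introns, 1 to 6 and 0 to 5 in the CDS, and 0 to 0 and 0 to 1 for the ratio. The shares then differed by values from -4.06 to -1.80 percentage points (3′ UTR), 0.63 to 1.16 (10 kb), -1.07 to 1.71 (intron) and 0.78 to 1.81 (CDS). The intron share turned to -0.072 without sh1 replicate 3 and -1.07 without sh2 replicate 3, and the CDS share to -0.18 as a median per gene (exact p = 0.4).

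In a check of pairing, sh1 and sh2 samples of the same number correlated at 0.097, -0.24 and 0.16. In 3 numbers not every sample correlated best with its own. These values are not correlations of levels, of which the lowest within an LNCaP group was 0.979. Whether the numbers mark shared handling was not settled, and CTRL and sh2 replicate 2 shared the high RPS2 reads. With the replicate block the CDS counts were 18 and 10, the 3′ UTR counts 0 and 2, the 10 kb counts 7 and 9 and the intron counts 4 and 12, the 3′ UTR line difference with 22Rv1 was 9 and not 18 genes, and the 10 kb share had an exact p of 0.25. Genes that lost their call under the block were IFIT1 (3′ UTR), CPXM2, SEPT1, LOXL3, B3GALT5, SCAP and HDAC2 (10 kb) and ADCY10 (intron). At class limits of 0.25 and 1, the calls graded with sh1 further were 6 and 1, and at 0.25 those with sh1 alone were 6 and opposite 16, while 5 fell into no class at 1. Among single genes 10 values turned sign, with 812 of 1018 unchanged in direction and call. Over the left-out libraries, CPSF1 ranged from -0.15 (without sh2 replicate 2) to 0.29 in the 3′ UTR and from -0.051 (without sh2 replicate 1) to 0.75 in the 10 kb region, GPI from -0.00924 (without sh2 replicate 2, and -0.0075 without sh1 replicate 1) to 0.040, with -0.054 under summed sizes, PFKM from -0.25 to 0.088 (0.011, 0.067 and 0.088 without sh1 replicate 1, sh2 replicate 2 and sh2 replicate 3), and ALDH3A2 from -0.13 to 0.000385 (without sh1 replicate 3). RPS2 in the 10 kb region turned to -1.49 without sh2 replicate 2. Depth limits the regions with under 40 reads in a group, where the ratios above carry wide counting intervals.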
